A study of Rattus norvegicus with 4 samples.

Results

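Full-length cDNA sequencing of A7R5 cells, a smooth muscle line from embryonic rat aorta, was used to examine 8 genes of mitosis and cytokinesis, *Cenpe*, *Cenpf*, *Smc4*, *Top2a*, *Mki67*, *Nusap1*, *Ect2* and *Anln*, among 30454 genes in the gene table and 9069 genes tested. The 8 genes were chosen by their fall in the same comparison that is described here, so their levels and fold changes are a description of the choice and carry no test. The cells were transfected with siRNA for 72 hours, 1 condition receiving a negative control pool and the other siRNA against *RbFox2*, an RNA-binding regulator of splicing. The title and treatment label of each knockdown library name RbFox2 alone. The treatment protocol shared by all 4 samples also names RhoBTB1 as a target, and *Rhobtb1* was not analysed here. For the sequenced RNA, the study's methods name only siRNA against *RbFox2* and a matched scrambled control. There were 2 libraries for each condition and all 4 came from the same line. Nothing in the labels says that the libraries of a condition came from separate cultures, so p-values measure only the spread between these libraries.

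Dividing cells copy their chromosomes, condense them, attach them to a spindle through kinetochores, and then split the cytoplasm at a contractile furrow. Transcripts for the proteins of these steps are made mostly late in the cell cycle and are scarce in resting cells, which is why several of them serve as proliferation markers. In the vessel wall, smooth muscle cells are largely quiescent, whereas a line such as A7R5 divides in culture. In bulk RNA, fewer dividing cells and less of a transcript in each dividing cell cannot be told apart, and this holds for every value below.

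The 4 libraries held 4353514 and 4072385 gene counts for control siRNA and 4408922 and 4617706 for RbFox2 siRNA. *Rbfox2* itself had 243 and 250 counts after control siRNA and 70 and 78 after RbFox2 siRNA, which is 71.0% less, with a log2 fold change of -1.78 (SE 0.185) and an adjusted p of 5.16e-05 in edgeR's quasi-likelihood test. A gene is termed called below where its Benjamini-Hochberg adjusted p in that test was under 0.05 and its fold change above 1.5. Of 14 smooth muscle markers, an identifier was known for 4, *Cnn1*, *Cald1*, *Tpm1* and *Itga8*, which had counts in all 4 libraries, *Cnn1* 1951 and 2106 against 1184 and 1322. All 4 were called lower, as were 4.37% of the genes tested. Few genes that were lower without being called had a name, so this count is largely set by the naming. *Acta2* and *Myh11* were not analysed here. Of the endothelial markers, *Nos3* was listed at 0 after control siRNA and had 194 and 186 counts after RbFox2 siRNA, while *Tek*, with 11 and 7 counts against 17 and 10, was not called. The macrophage markers *Cd68* and *Cd14*, with 21 to 42 and 507 to 666 counts, were not called. The part of these marker changes in the results below was not tested.

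Late cell-cycle promoters are known for a pair of short elements, the cell cycle genes homology region (CHR), which the MuvB-containing complexes bind, and CCAAT boxes, which NF-Y binds. Promoter sequence was at hand for 8 of 8 genes by symbol, as RefSeq windows of 250 bases before to 50 bases after the annotated start on the GRCr8 assembly, a different build from the one the reads were counted on. The windows of 5 genes are printed 5′ to 3′ on the gene's strand, 1 for each step of division and *Cenpe* as the gene that has no CHR match, with CHR letters (TTTGAA or TTCGAA) and CCAAT in capitals on either strand, so that TTCAAA and ATTGG are the same elements read on the opposite strand. The windows are those of *Cenpf* (chr13:103760837-103761136, minus strand), *Cenpe* (chr2:226310807-226311106, plus strand), *Top2a* (chr10:84473044-84473343, minus strand), *Nusap1* (chr3:127057045-127057344, plus strand) and *Ect2* (chr2:111966577-111966876, minus strand).
Cenpf: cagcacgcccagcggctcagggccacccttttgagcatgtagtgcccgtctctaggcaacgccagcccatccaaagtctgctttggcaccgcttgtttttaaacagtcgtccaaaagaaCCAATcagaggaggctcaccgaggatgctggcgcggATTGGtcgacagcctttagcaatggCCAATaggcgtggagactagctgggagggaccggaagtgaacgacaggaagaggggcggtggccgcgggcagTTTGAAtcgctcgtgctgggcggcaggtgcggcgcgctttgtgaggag
Cenpe: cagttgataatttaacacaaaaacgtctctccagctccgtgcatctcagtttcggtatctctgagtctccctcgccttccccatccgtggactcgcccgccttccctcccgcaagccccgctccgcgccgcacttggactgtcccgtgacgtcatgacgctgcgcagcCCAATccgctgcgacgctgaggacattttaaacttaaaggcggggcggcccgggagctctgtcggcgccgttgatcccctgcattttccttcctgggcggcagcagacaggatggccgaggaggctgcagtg
Top2a: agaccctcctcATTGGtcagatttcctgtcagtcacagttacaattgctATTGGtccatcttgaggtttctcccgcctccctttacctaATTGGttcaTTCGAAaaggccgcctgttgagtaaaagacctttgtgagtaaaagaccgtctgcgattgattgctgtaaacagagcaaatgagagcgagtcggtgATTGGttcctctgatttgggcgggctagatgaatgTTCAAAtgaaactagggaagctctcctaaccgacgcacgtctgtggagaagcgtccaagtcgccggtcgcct
Nusap1: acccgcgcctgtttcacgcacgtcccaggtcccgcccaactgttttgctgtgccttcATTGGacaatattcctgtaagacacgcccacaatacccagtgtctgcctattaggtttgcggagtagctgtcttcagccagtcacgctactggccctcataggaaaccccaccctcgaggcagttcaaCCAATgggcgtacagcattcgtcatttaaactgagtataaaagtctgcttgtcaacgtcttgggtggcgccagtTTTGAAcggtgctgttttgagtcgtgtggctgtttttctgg
Ect2: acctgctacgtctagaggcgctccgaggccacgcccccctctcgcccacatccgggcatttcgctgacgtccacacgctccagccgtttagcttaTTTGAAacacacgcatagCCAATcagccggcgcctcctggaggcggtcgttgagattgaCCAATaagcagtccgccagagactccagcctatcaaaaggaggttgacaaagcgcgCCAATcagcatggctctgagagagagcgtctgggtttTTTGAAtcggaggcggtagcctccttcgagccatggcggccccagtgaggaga

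A CHR match lay in 7 of 8 windows, all but that of *Cenpe*, and a CCAAT match in 7 of 8, all but that of *Anln*, so that 6 held both. Among all 33469 promoters of the RefSeq table, 19.7% held a CHR match, 37.5% a CCAAT match and 7.95% both. Several of the matches sat close to the start site: the first letter of the nearest CHR match was 3 bases upstream in *Ect2*, at base 3 after the start in *Cenpf*, at base 10 in *Nusap1* and 22 bases upstream in *Top2a*. In *Anln* a pair of CHR matches began 31 and 24 bases upstream on opposite strands, and in *Smc4* a pair began 78 and 60 bases upstream. *Mki67* had them further out, at 117 and 99 bases upstream, and the nearer one overlaps a CCAAT match.

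CCAAT was present more than once in 5 of the 8 windows, against 11.2% of all promoters, with 4 matches in *Top2a* and *Mki67*, 3 in *Cenpf* and *Ect2* and 2 in *Nusap1*. The GC content of the windows ran from 48.7% in *Top2a* to 70.0% in *Anln*. Of the 50 other genes of mitosis that were called lower with counts in both conditions, 44 had a window, of which 65.9% held a CHR match, 52.3% a CCAAT match and 40.9% both. Mitosis genes that were not called lower were not looked up as a set, so nothing about the fall is read from these shares. These are matches of letters in annotated windows. Binding was not measured, and the start sites used by A7R5 cells were not examined here.

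**Figure D1:**
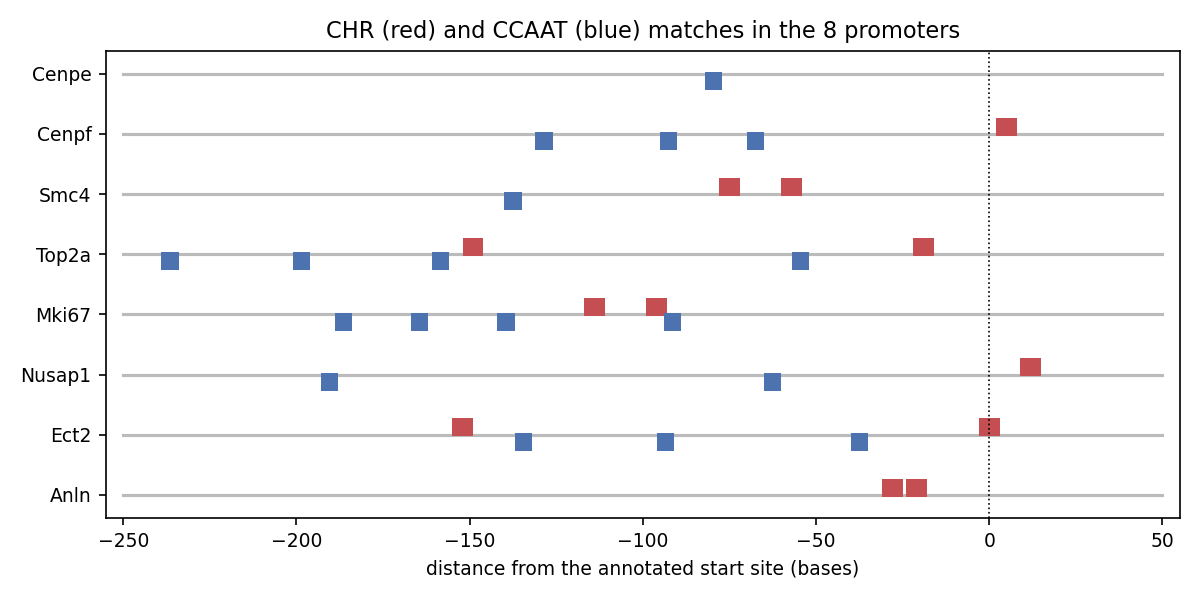
Positions of CHR (red) and CCAAT (blue) letter matches in the promoter windows of the 8 genes, 1 row per gene, with distance from the annotated start site in bases on the x axis (dotted line: start site). CHR matches are drawn in 7 rows, absent from *Cenpe*, and CCAAT matches in 7 rows, absent from *Anln*.

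The kinetochore genes of the group were *Cenpe* (ENSRNOG00000009339), a kinesin motor that carries chromosomes to the spindle equator, and *Cenpf* (ENSRNOG00000003388), a large protein of the outer kinetochore. *Cenpe* had 140 and 110 counts after control siRNA and 55 and 59 after RbFox2 siRNA. Both knockdown libraries were below both controls and nearly level with each other, at 12.5 and 12.8 CPM (counts per 1000000 gene counts of the library) against 32.2 and 27.0. The mean went from 29.6 ± 3.64 to 12.6 ± 0.214 CPM (SD, n = 2 for each condition), a log2 fold change of -1.17 (SE 0.208). *Cenpf* had 511 and 435 counts against 194 and 228. Again the conditions did not overlap, and the mean went from 112 ± 7.47 to 46.7 ± 3.80 CPM (SD, n = 2), a log2 fold change of -1.21 (SE 0.153). The levels of both kinetochore genes were thus lower by similar shares, 55.6% and 56.7%.

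Among the chromosome structure genes, *Smc4* (ENSRNOG00000010274) encodes an ATPase core subunit of condensin. It had 284 and 228 counts after control siRNA and 101 and 153 after RbFox2 siRNA. Its knockdown libraries were the furthest apart of the 8 genes, 22.9 and 33.1 CPM, a 1.45-fold difference, yet both lay below the control values of 65.2 and 56.0 CPM. The mean went from 60.6 ± 6.54 to 28.0 ± 7.23 CPM (SD, n = 2), a log2 fold change of -1.06 (SE 0.200), and with 1 library left out at a time this value ran from -1.30 to -0.82. *Top2a* (ENSRNOG00000053047), the topoisomerase that untangles sister chromatids, had the most reads of the group, 1759 and 1496 against 845 and 922. No knockdown library reached a control library, and the mean went from 386 ± 25.9 to 196 ± 5.66 CPM (SD, n = 2), a log2 fold change of -0.92 (SE 0.124) and the smallest change of the 8. *Mki67* (ENSRNOG00000028137), which encodes the Ki-67 protein that coats mitotic chromosomes, had 578 and 458 counts against 262 and 297. It moved like *Top2a*, from 123 ± 14.4 to 61.9 ± 3.46 CPM (SD, n = 2), a log2 fold change of -0.93 (SE 0.148), and its conditions did not overlap either.

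For the spindle, *Nusap1* (ENSRNOG00000004921), which bundles microtubules near chromatin, was the gene with fewest reads, 51 and 41 counts against 17 and 24. Its conditions did not overlap, but at these counts its error was the largest, with a log2 fold change of -1.21 (SE 0.300) and means of 10.9 ± 1.16 and 4.53 ± 0.949 CPM (SD, n = 2). Leaving out 1 library at a time gave log2 fold changes from -1.39 to -1.02.

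At the cleavage furrow, *Ect2* (ENSRNOG00000024365), the exchange factor that activates RhoA to start furrowing, had 343 and 268 counts after control siRNA and 88 and 120 after RbFox2 siRNA. It had the greatest change of the 8, from 72.3 ± 9.18 to 23.0 ± 4.26 CPM (SD, n = 2), a log2 fold change of -1.60 (SE 0.189) or 66.9% less. Even the lower control library was 2.53-fold above the higher knockdown library. *Anln* (ENSRNOG00000014343), the actin-binding scaffold anillin of the contractile ring, had 716 and 568 counts against 308 and 344. The conditions did not overlap, and the mean went from 152 ± 17.7 to 72.2 ± 3.28 CPM (SD, n = 2), a log2 fold change of -1.02 (SE 0.142).

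**Figure D2:**
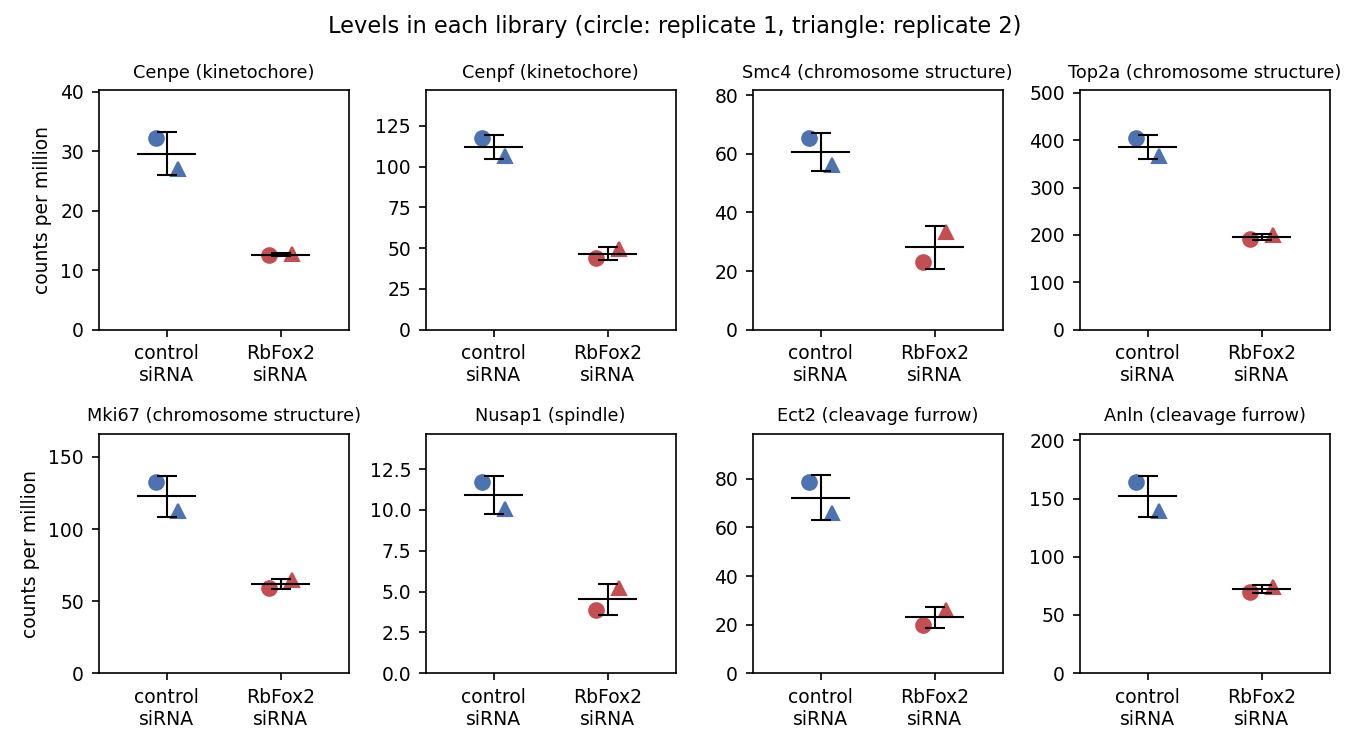
Level of each of the 8 genes in CPM (y axis, from 0, a separate scale for each gene) in the control siRNA (blue) and RbFox2 siRNA (red) libraries, with replicate 1 as a circle, replicate 2 as a triangle, the mean as a line and the SD as a bar (n = 2). In every panel both red points lie below both blue points.

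In all 8 genes both RbFox2 siRNA libraries lay below both control siRNA libraries, a pattern seen in 30.2% of all 9069 genes tested, and all 8 were called lower, against 4.37% of genes tested. Because the genes were chosen for this, nothing is read from these counts. The lowest control value was 1.69-fold to 2.53-fold above the highest knockdown value, while libraries of 1 condition differed by 1.10-fold to 1.20-fold for control siRNA and by 1.02-fold to 1.45-fold for RbFox2 siRNA. The order of the log2 fold changes was *Ect2*, *Cenpf*, *Nusap1*, *Cenpe*, *Smc4*, *Anln*, *Mki67* and *Top2a*. From *Cenpf* on, each gene differed from the next by less than the SE of either. With 1 library left out, *Ect2* ran from -1.76 to -1.43, and the values of the other genes of the 8 lay between -1.39 and -0.82. These ranges do not measure error. The SE ranges of *Ect2* (-1.60, SE 0.189) and *Nusap1* (-1.21, SE 0.300) overlap. Against the 8733 tested genes that had counts in both conditions, *Ect2* had the 25th lowest log2 fold change and *Top2a* the 210th lowest.

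The 8 genes together took 1007 and 885 CPM after control siRNA and 424 and 465 after RbFox2 siRNA, so the knockdown mean of 445 ± 28.9 (SD, n = 2) was 47.0% of the control mean of 946 ± 86.0. The make-up of this sum shifted by a few percentage points. *Ect2* supplied 7.83% and 7.44% of the summed reads in the control libraries and 4.71% and 5.59% in the knockdown libraries. *Top2a* supplied 40.1% and 41.5%, then 45.2% and 42.9%. In the group, control replicate 1 was above control replicate 2 in 8 of 8 genes, and RbFox2 siRNA replicate 1 was above replicate 2 in 0 of 8. This order of the replicates was also seen in 29.0% of all genes tested, and the 8 genes share their libraries, so these are not 8 separate observations.

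**Figure D3:**
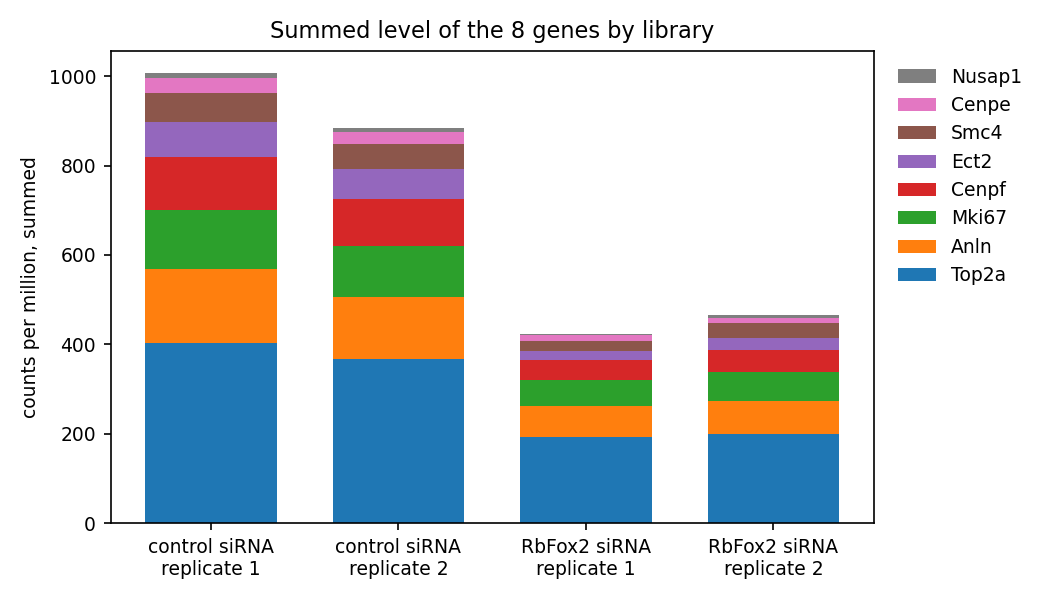
Summed level of the 8 genes in each of the 4 libraries (y axis, CPM from 0), stacked by gene, with *Top2a* at the base. The sums were 1007 and 885 in the control siRNA libraries and 424 and 465 in the RbFox2 siRNA libraries.

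Some reads of the group may be shared with other genes. In the RefSeq annotation, *Nusap1* overlaps *Ndufaf1* and a pseudogene, *Anln* overlaps *Matcap2*, *Ect2* overlaps a pseudogene, and *Smc4* hosts the microRNA genes *Mir15b* and *Mir16*. Annotated copies exist under the names *Mki67-ps1*, *Nusap1-ps1* and *Anlnl1*. How the counting divided such reads is not given in the sources used here, so the values of *Nusap1*, *Anln*, *Ect2* and *Mki67* are less certain in this respect than those of *Cenpe*, *Cenpf* and *Top2a*.

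The wider machinery was described with 7 lists that hold 178 further genes. An Ensembl identifier was known for 73 of them, because names were available for 656 of the 679 called genes but for few uncalled genes that were lower, and 1715 of the 1726 named genes that were not called had a higher estimate after RbFox2 siRNA. The number called of the 73 is therefore set in part by the naming and cannot be read as a share. Of the 73, 61 were called lower, 6 higher and 6 neither, against 4.37% lower and 3.12% higher of all genes tested. Without control siRNA replicate 2, 40 in place of 61 were called lower. Among genes with counts in both conditions, 50 were called lower and 1 higher of 57, against 2.69% and 1.24% of 8733. The 50 had log2 fold changes from -1.35 to -0.59. The median over the 57 was -0.80, beside -0.01 over the 8733. Over the 50 called lower it was -0.84, beside -0.90 over those of the 8733 called lower. The median over the 57 is set in part by the naming as well. Few uncalled genes that were lower can enter the 57, while the 8733 have no such limit, so nothing is read from the gap between them. Of the 50, 14 had a lower log2 fold change than *Top2a* and 36 a less negative one, with *Pbk* at -0.92 and *Ncapg* at -0.93 on either side of it.

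The counts called in each list below are also set in part by the naming. They stand beside 4.37% lower and 3.12% higher of all genes tested. Around *Cenpe* and *Cenpf*, 14 of 40 further kinetochore and centromere genes had an identifier, and 14 of 14 were called lower. With counts in both conditions this was 12 of 12. The 4 with most reads were *Nuf2*, *Spc25* and *Ndc80*, subunits of the NDC80 complex that grips microtubules, and *Cenpq*, of the inner kinetochore. *Nuf2* had 829 and 790 counts against 517 and 495. *Cenpq* had 481 and 528 against 244 and 260, the strongest change of these 4, with a log2 fold change of -1.05 and an adjusted p of 0.00114 in edgeR's quasi-likelihood test. The remaining 3 lay between -0.86 for *Ndc80* and -0.72 for *Nuf2*. For the spindle checkpoint and anaphase control, 5 of 8 were called lower and 1 higher, *Anapc4*, which was listed at 0 after control siRNA. With counts in both conditions, 4 of 6 were called lower and 0 higher. Those lower included *Cdc20*, an activator of the anaphase-promoting complex, with 1122 and 1215 counts against 781 and 767, *Fbxo5*, an inhibitor of that complex, at -0.70, *Trip13*, which remodels the checkpoint protein MAD2, at -0.59, and the checkpoint kinase gene *Bub1b* at -0.69. *Pttg1*, which encodes securin, with 11 and 13 counts against 17 and 26, and *Anapc1*, with 32 and 36 against 58 and 52, were not called.

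Around *Smc4*, *Top2a* and *Mki67*, 8 of 10 chromosome structure genes with an identifier were called lower. The other 2, *Ncapg2* and *Champ1*, were called higher, both listed at 0 after control siRNA. With counts in both conditions, 7 of 7 were called lower. *Kif22*, a chromosome-arm motor, had 1892 and 1848 counts against 1166 and 1114. *Ncaph*, the condensin subunit that bridges SMC2 and SMC4, had 302 and 280 against 147 and 163, a log2 fold change of -0.95 beside -1.06 for *Smc4*. *Cdca2*, a phosphatase-targeting protein of chromatin, was at -0.90 and *Cdca5*, which encodes the cohesin protector sororin, at -0.62. *Smc2*, the partner of SMC4 in condensin, was singled out after its values were seen because it had the lowest log2 fold change of the 50, -1.35, with 181 and 157 counts against 62 and 75. Both identified genes of the chromosomal passenger complex, which corrects faulty attachments, were called lower, *Aurkb* at -0.88 and *Cdca8* at -0.91.

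Around *Nusap1*, 15 of 19 spindle and centrosome genes with an identifier were called lower and 3 higher. With counts in both conditions, 12 of 14 were called lower and 1 higher. *Tacc3*, which stabilises spindle fibres, had 976 and 926 counts against 686 and 617, *Kifc1*, a minus-end motor, was at -0.60, and *Ckap2* at -0.64. *Haus7*, a subunit of the augmin complex that branches spindle microtubules, was the exception among genes with counts in both conditions, with 244 and 257 counts against 536 and 604, a log2 fold change of 1.13 and an adjusted p of 4.51e-04 in edgeR's quasi-likelihood test. *Spice1*, with 16 and 21 counts against 7 and 8, was not called.

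Around *Ect2* and *Anln*, 12 of 26 further cleavage furrow and abscission genes had an identifier, of which 9 were called lower and none higher. Of the 9, 4 were at 0 after RbFox2 siRNA, and with counts in both conditions 5 of 8 were called lower. Both RACGAP1, which recruits ECT2 to the central spindle, and PRC1, which builds that structure, are encoded by genes of this list. *Racgap1* had 477 and 425 counts against 311 and 296, a log2 fold change of -0.61 beside -1.60 for *Ect2*. *Prc1* had 1208 and 1083 against 618 and 751, at -0.79. The kinesin gene *Kif20a* was at -0.65 and the formin gene *Diaph3* at -0.61. *Myl12b*, *Chmp4b* and *Tsg101* had estimates of 0.25, 0.40 and 0.26 and were not called. Genes that were not called had a name almost only where their estimate was higher, so nothing is read from these signs. Of 23 mitotic kinases and cyclins, 8 had an identifier, and 8 of 8 were called lower, with the same limit from the naming. *Ccnb1*, the main mitotic cyclin, had 1127 and 1123 counts against 739 and 756, *Ccna2* was at -0.78, *Plk1* at -0.69 and *Ccnb2* at -0.66.

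**Figure D4:**
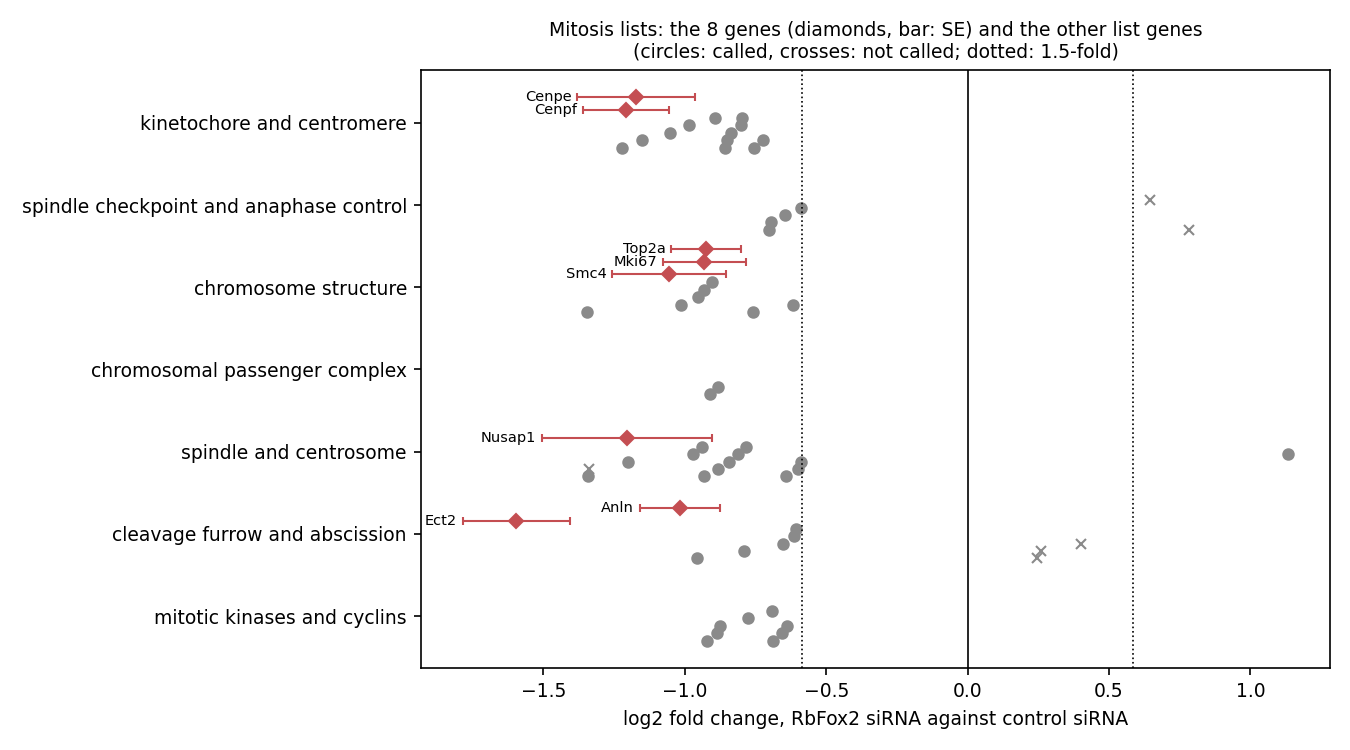
Log2 fold change of RbFox2 siRNA against control siRNA (x axis) for the 8 genes (red diamonds, bar: SE) and for the other genes of the 7 mitosis lists that had counts in both conditions (grey circles: called, crosses: not called), by list, with dotted lines at a fold change of 1.5. *Ect2* lies furthest to the left at -1.60, and *Haus7* is the circle to the right at 1.13.

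Genes at 0 counts in both libraries of 1 condition and with at least 10 counts in both of the other need separate mention, since the whole table held 341 of them, of which 336 were called. None of the 8 genes was among them. Of the mitosis lists, 11 were listed at 0 after RbFox2 siRNA, among them *Shcbp1* with 304 and 318 control counts, *Ist1* with 375 and 361, *Mis12* with 181 and 182, *Aspm* with 176 and 171, and *Ccsap* with 129 and 124. The other 6, *Kif14*, *Mau2*, *Mad2l1*, *Gas2l3*, *Cenpj* and *Spc24*, had between 10 and 80 control counts. In the opposite direction 5 were listed at 0 after control siRNA, *Anapc4* with 1051 and 964 counts after RbFox2 siRNA, *Haus1* with 310 and 375, *Champ1* with 104 and 91, *Numa1* with 80 and 92 and *Ncapg2* with 19 and 22. Setting these 16 aside leaves the 50 lower and 1 higher given above, and a new fit of the whole table without such genes called 44 lower and 1 higher. The counts of each condition stand in a separate table. A difference between the tables in how reads were assigned to genes would therefore coincide with the siRNA, for these genes and for the 8 alike. Why whole conditions are at 0 was not tested, and no fold change is given for these genes.

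The genes whose profile over the 4 libraries was nearest to the mean profile of the 8 were sought among 2374 named genes by the Euclidean distance of centred log2 CPM. Of the 5 nearest, 4 are given here, *Brip1*, a DNA repair helicase gene, at a distance of 0.063, *Atp6v0d1*, a proton pump subunit gene, at 0.082, *Ptpn20*, a phosphatase gene, at 0.120 and *Col12a1*, a collagen gene, at 0.139. *Brip1* had 104 and 89 counts against 40 and 50, *Col12a1* had 112 and 96 against 48 and 57, and *Ptpn20* only 17 and 12 against 5 and 6. Few uncalled genes that were lower had a name, so the choice of near genes is set in part by the naming. For single genes, the nearest was *Kif18b*, a kinesin gene of the spindle list, for both *Mki67* and *Anln*, the thymidine kinase gene *Tk1* for both *Smc4* and *Nusap1*, *Tmem169* for *Cenpe*, *Dact3* for *Cenpf* and *Tmtc4* for *Top2a*. *Ect2* had the least close neighbour, *Xirp1*, at 0.175. With 4 libraries and 2 conditions, any gene of similar fold change is near. With a prior of 0.5 counts in place of 2, 3 of the 5 nearest genes were shared, and *Ptpn20* was not among them. The nearest gene became *Skp2* for *Cenpe* and *Brip1* for *Cenpf*, with the other 6 as given.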

How the data were processed

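RNA from A7R5 cells was read as full-length cDNA on the PacBio platform (Kinnex Iso-Seq) in 4 libraries, 2 per condition. The authors removed primers, aligned the reads to the rat genome mRatBN7.2 with pbmm2 and counted them per Ensembl gene with IsoQuant, and the deposited gene tables hold these counts, 1 table per condition, without normalization. The transcript tables were not used, since no table at hand pairs their transcripts with the 8 genes.

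The gene tables were joined by Ensembl identifier and columns were assigned to groups by the sample labels. Names came from the study's supplementary gene sheets and covered 2382 of 30454 genes. Genes were filtered with filterByExpr, scaled by TMM (factors 0.976 to 1.05) and tested across all 9069 genes with the quasi-likelihood test of edgeR 4.0.16 under R 4.3.3, with Benjamini-Hochberg adjustment, a threshold of 0.05 and a fold change above 1.5. Standard errors were derived from each gene's F statistic and its log2 fold change. CPM uses the summed counts of a library, which put the value of 3 counts at 0.650 to 0.737 CPM. The alternatives used DESeq2 1.42.0, other filters and scalings, the replicate block and each library left out. The code was tested on simulated data. With 1 full-length read per cDNA, and coding lengths not at hand, levels were not ranked between genes. Genes named beyond the 8 and *Rbfox2* are up to 4 called genes with most counts in each mitosis list, up to 5 in the list of cell cycle inhibitors and stress response genes, list genes at 0 in both libraries of 1 condition with at least 10 counts in both of the other, and the nearest profiles, of which 1 is not reported here. List genes that were not called, *Smc2*, *Pbk* and *Ncapg* were named after their values were seen. The members and lists were chosen with earlier results of these data known.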

Additional observations from a re-analysis of the deposited data

How the results depend on the processing

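The count of genes differentially expressed was 679, and 328 with at least 10 counts in every library, 337 without genes at 0 in 1 condition and 571 to 1052 with each library left out, the highest without RbFox2 siRNA replicate 2. Mitosis list genes called lower numbered 61, from 44 to 61 under the other alternatives and from 40 to 55 with each library left out, 40 without control siRNA replicate 2. Those called higher numbered 6, and 1 under either exclusion of genes with 0 counts. The median log2 fold change of the 8 genes was -1.11, from -1.17 to -1.10 under the alternatives and from -1.20 to -0.999 with each library left out, and *Rbfox2* ran from -1.89 to -1.67 with each library left out. Of the log2 fold changes of single genes among the 8, 0 of 56 moved by more than the SE under the other alternatives and 2 of 32, both of *Smc4*, with 1 library left out (-1.30 and -0.82), and 0 changed sign. Where 1 library was left out, the lone library was assumed to vary like the others. The causes were not tested.

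Replicates share only a number. Their deviations correlated at -0.128 (9069 genes), and the fit with the replicate block gave 862 genes, 61 of them in the mitosis lists and lower. The crossed pairing, added after the data were seen, gave 646 genes. The order of levels per coding length was not run, as no protein lengths were at hand. At 17 to 51 counts, *Nusap1* is the value that depth limits most.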

Other observations

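A list of cell cycle inhibitors and stress response genes was read beside the mitosis genes. Identifiers were known for 18 of its 36 genes, and 6 were called higher, 1 lower and 11 neither, against 3.12% higher and 4.37% lower of all genes tested. Few uncalled genes that were lower had a name, so list genes that fell without being called are mostly missing. The 11 all had higher estimates, which the naming largely sets, and the 6 of 18 cannot be read as a share. *Cdkn2b*, an inhibitor of the cyclin D kinases, had 454 and 402 counts after control siRNA and 810 and 740 after RbFox2 siRNA, a log2 fold change of 0.82 with an adjusted p of 0.00261 in edgeR's quasi-likelihood test. *Bbc3*, which promotes cell death, had 121 and 152 counts against 309 and 313. *Gadd45a*, a stress response gene, had 615 and 720 against 935 and 1249.

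The list also holds *Ccnd1*, which encodes cyclin D1 and drives the cycle forward. It had 1021 and 945 counts against 1657 and 1861, a log2 fold change of 0.79. *Plk2* was at 0.89. *Rrm2b* was listed at 0 after control siRNA with 42 and 45 counts after RbFox2 siRNA, and *Rbl1*, a pocket protein gene, was the 1 called lower, with 36 and 18 counts against 0 in both. With each library left out in turn, 5 to 8 genes of the list were called higher.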
